A study of Rattus norvegicus with 12 samples.

Results

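The congestive left kidneys of operated rats were studied in 3 cortex and 3 outer medulla arrays. The question was which genes were expressed differently between these regions of the congestive kidney. No label states whether both regions came from the same rats. The members were chosen by their labels: the 6 arrays labelled as congestion, 3 of cortex (Cx congestion) and 3 of outer medulla (Om congestion), of 12 arrays in all. The other 6 arrays hold the cortex and outer medulla of the control right kidneys (Cx control and Om control, 3 each). All animals were male Sprague-Dawley rats aged 7 to 9 weeks in which the inferior vena cava had been tied off completely between both renal veins, and tissue was taken on day 3. Both kidneys of a rat carry the effects of the same operation, so the right kidneys are not organs of unoperated animals. The labels name the lower region outer medulla, whereas the protocol speaks only of a division into cortex and medulla. Total RNA was hybridised to GeneChip arrays (Rat Gene 2.0 ST), which carry short probes for each transcript. The deposited value of a gene was read as a log2 expression value, since the log base was not given. A difference is cortex minus outer medulla on the log2 scale, so that 1 stands for 2-fold, and a gene was called where limma's moderated test gave an adjusted p under 0.05 over all 18166 named genes. The arrays of a region are numbered 1 to 3, and cortex 2 stands for the cortex array of replicate 2.

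The kidney is layered. The cortex holds the glomeruli, where blood is filtered, and the convoluted tubules, where most glucose, amino acids, phosphate and bicarbonate are recovered. The outer medulla holds the straight last segment of the proximal tubule (S3), the thick ascending limb that takes up salt without water, collecting ducts and the bundles of the vasa recta, and it works at a low oxygen tension. Collecting ducts and thick limbs run through both regions. A lower value in a region can mean fewer cells of a kind or less RNA in each of them, and these cannot be told apart in RNA of whole tissue.

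Across all rows of the arrays, Pearson's r was 0.990 to 0.991 among the cortex arrays and 0.988 to 0.991 among the outer medulla arrays. Outer medulla 3 stood closer to the cortex than its replicates did. Its r with the cortex arrays was 0.984 to 0.986, whereas outer medulla 1 and 2 had 0.978 to 0.981 and 0.976 to 0.980. Genes of the early proximal tubule moved with this array. Of 23 such genes, 22 had their highest outer medulla value in outer medulla 3, and their mean level was 11.13, 11.04 and 11.15 in cortex, against 9.41, 8.85 and 9.997 in outer medulla. Within the cortex, cortex 2 was the array with the highest value for 30 of 37 matrix genes, 22 of 32 collagens, 23 of 35 injury genes and 26 of 30 genes of the cell cycle. Over all 18166 genes cortex 2 was the highest cortex array for 6446, and outer medulla 3 the highest of its region for 6512. The part of tissue sampling in these shifts was not tested. Leaving out outer medulla 3 raised the counts of called genes over all named genes.

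In the congestive kidneys 1218 genes (6.70% of those tested) were higher in cortex and 1126 (6.20%) were higher in outer medulla. All counts of list members called between these regions are to be read against these 2 shares. Of the genes higher in cortex and in outer medulla, 319 and 269 differed by at least 2-fold, and 72 and 49 by at least 4-fold. The median difference over all named genes was -0.01. For every called gene the 3 cortex values lay apart from the 3 outer medulla values. This goes with the call and adds no support to it, and the share over all named genes was not counted. When cortex 1, 2 or 3 or outer medulla 1, 2 or 3 was left out in turn, the genes higher in cortex numbered 516, 849, 603, 530, 771 and 1613, and those higher in outer medulla 482, 844, 540, 482, 715 and 1449, in that order. There were 449 and 417 genes that were called in all 6 of these fits. Unless stated otherwise, each called gene named in the text was called in all 6 fits with 1 array left out.

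**Figure D1:**
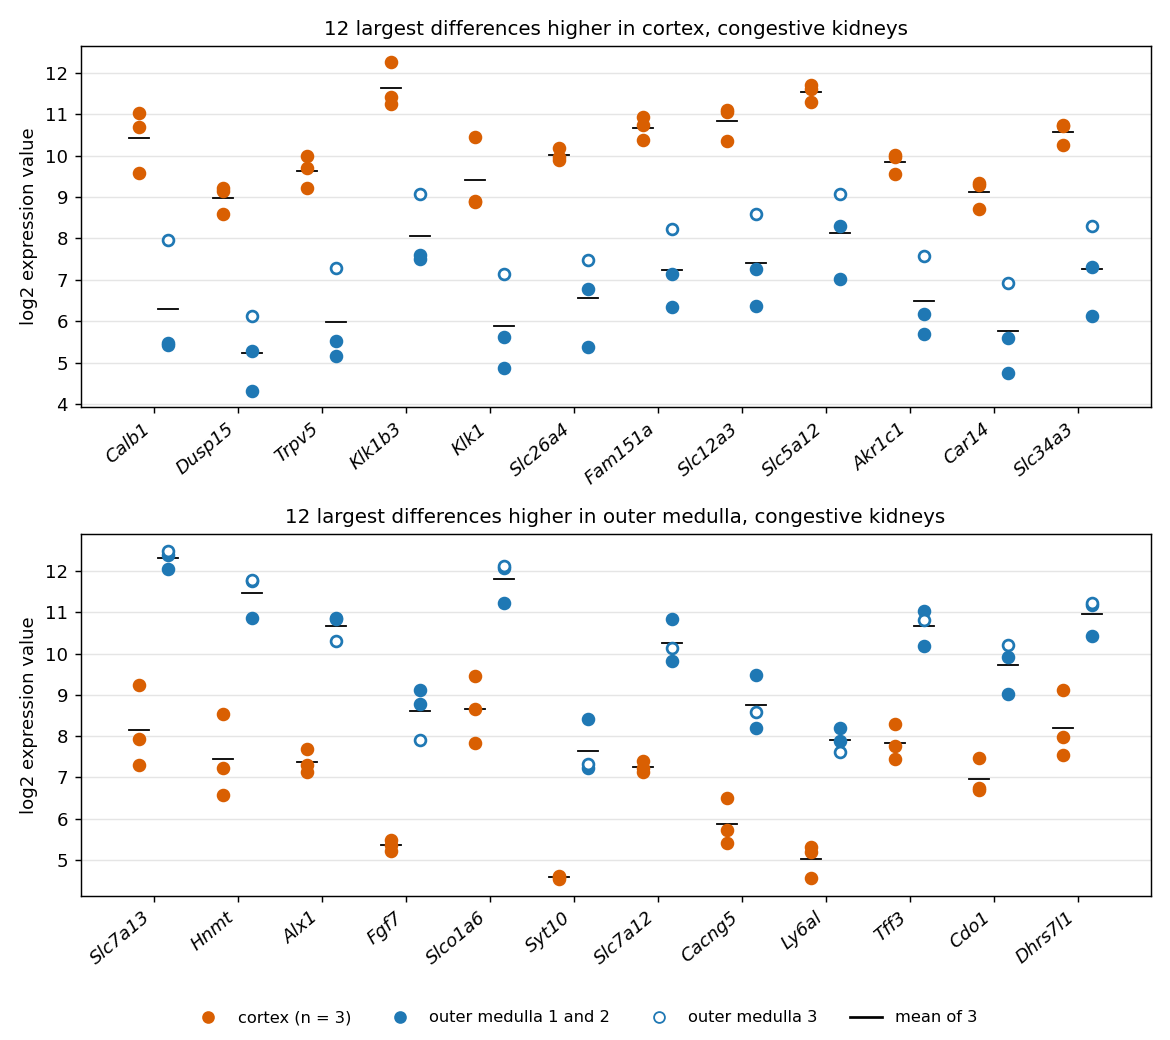
Log2 expression values of the 12 genes with the largest differences toward cortex and the 12 toward outer medulla in congestive kidneys. Each point is 1 array, orange for the 3 cortex arrays and blue for the 3 outer medulla arrays, with a bar at the mean of 3. The genes were picked among called genes whose regions do not overlap, so the gap between the regions is part of the choice. Outer medulla 3 (open blue point) is the highest outer medulla array for all 12 genes of the upper panel.

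Genes of the distal convoluted and connecting tubule led the side of the cortex. Calb1, which encodes the calcium-binding protein calbindin, had values of 11.03, 9.58 and 10.69 in cortex, against 5.42, 5.48 and 7.96 in outer medulla. The difference was 4.15 (standard error 0.70, adjusted p = 0.0098), the largest toward cortex. Outer medulla 3 was clearly above its replicates but below every cortex array. Trpv5, the apical calcium channel of the same cells, had values of 9.22, 9.69 and 9.99 in cortex, against 5.51, 5.16 and 7.28 in outer medulla and a difference of 3.65 (adjusted p = 0.0049). The thiazide-sensitive sodium chloride cotransporter Slc12a3 had 11.05, 10.35 and 11.11 in cortex, against 7.26, 6.37 and 8.60 in outer medulla, and the difference came to 3.43 (adjusted p = 0.0063). Of 18 measured genes of these segments, 9 were higher in cortex, 0 were lower and 9 were not called, and the median difference was 0.58. With 1 array left out, in the order above, the higher ones numbered 7, 11, 7, 7, 7 and 11 and the lower ones 0, 0, 2, 0, 0 and 0. The sodium-calcium exchanger Slc8a1 (1.78), the vitamin D receptor Vdr (1.42), the co-receptor Klotho (Kl, 1.21) and the homeobox gene Emx1 (0.99) were also higher in cortex. Dusp15, a phosphatase gene outside this list, was the second largest difference at 3.75, with 9.22, 8.59 and 9.15 in cortex, against 5.27, 4.32 and 6.12 in outer medulla.

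Tissue kallikreins, serine proteases that the connecting tubule secretes into urine and that release kinins, were higher in cortex in 3 of 14 measured genes of the kallikrein and kinin list, and 0 were lower. Klk1b3 had 12.25, 11.42 and 11.25 in cortex, against 7.61, 7.51 and 9.08 in outer medulla, which gave a difference of 3.57 (standard error 0.44, adjusted p = 0.0031). For Klk1 the values were 10.44, 8.91 and 8.88 in cortex, against 5.61, 4.87 and 7.15 in outer medulla, and the call at 3.54 (adjusted p = 0.012) was not kept without outer medulla 1 (adjusted p = 0.06). Cortex 1 was the highest array for both genes. Klk1c9 differed by 1.38 (adjusted p = 0.16) and Klk1c10 by 1.29 (adjusted p = 0.056), and neither was called. With the replicate number as a block, which sets each cortex against the outer medulla of the same number, the adjusted p of Klk1c10 was 0.029. The kallikrein genes called higher numbered 2, 2, 3, 1, 2 and 3 with 1 array left out. These genes are closely similar in sequence, and signal of 1 may be read by probes of another.

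Nearly all early proximal tubule genes were higher in cortex. Of 23 measured genes 20 were higher in cortex and 0 lower, against 6.70% of all genes higher, and 23 had a positive difference. Slc5a2, the glucose transporter SGLT2, had 11.14, 11.02 and 11.15 in cortex, against 7.91, 7.06 and 8.76 in outer medulla, which gave a difference of 3.19 (standard error 0.37, adjusted p = 0.0025). The cortex arrays lay within a narrow range while the outer medulla arrays were spread, with outer medulla 3 the highest and outer medulla 2 the lowest. The same order held for the lactate transporter Slc5a12 (11.71, 11.28 and 11.60 in cortex, against 8.30, 7.03 and 9.07 in outer medulla), whose difference was 3.40. Differences of the phosphate transporter Slc34a3, the neutral amino acid transporter Slc6a19, the organic anion transporter Slc22a8 and the bicarbonate transporter Slc4a4 were 3.32, 3.09, 2.98 and 2.64. Genes of endocytosis differed less. Lrp2, which encodes the receptor megalin, differed by 0.76 (adjusted p = 0.04), a call not kept without cortex 1, 2 or 3 or outer medulla 1 (adjusted p = 0.092 to 0.12). Its partner Cubn differed by 0.73 (adjusted p = 0.042), a call not kept without cortex 1, 2 or 3 or outer medulla 1 or 2 (adjusted p = 0.11 to 0.15). The main phosphate transporter Slc34a1 had 12.97, 12.88 and 12.87 in cortex, against 11.93, 11.01 and 12.23 in outer medulla, and its call at 1.19 (adjusted p = 0.032) was not kept without cortex 1, 2 or 3 or outer medulla 1 (adjusted p = 0.076 to 0.11). Leaving out 1 array in the order above gave 13, 15, 13, 12, 18 and 22 genes called higher.

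**Figure D2:**
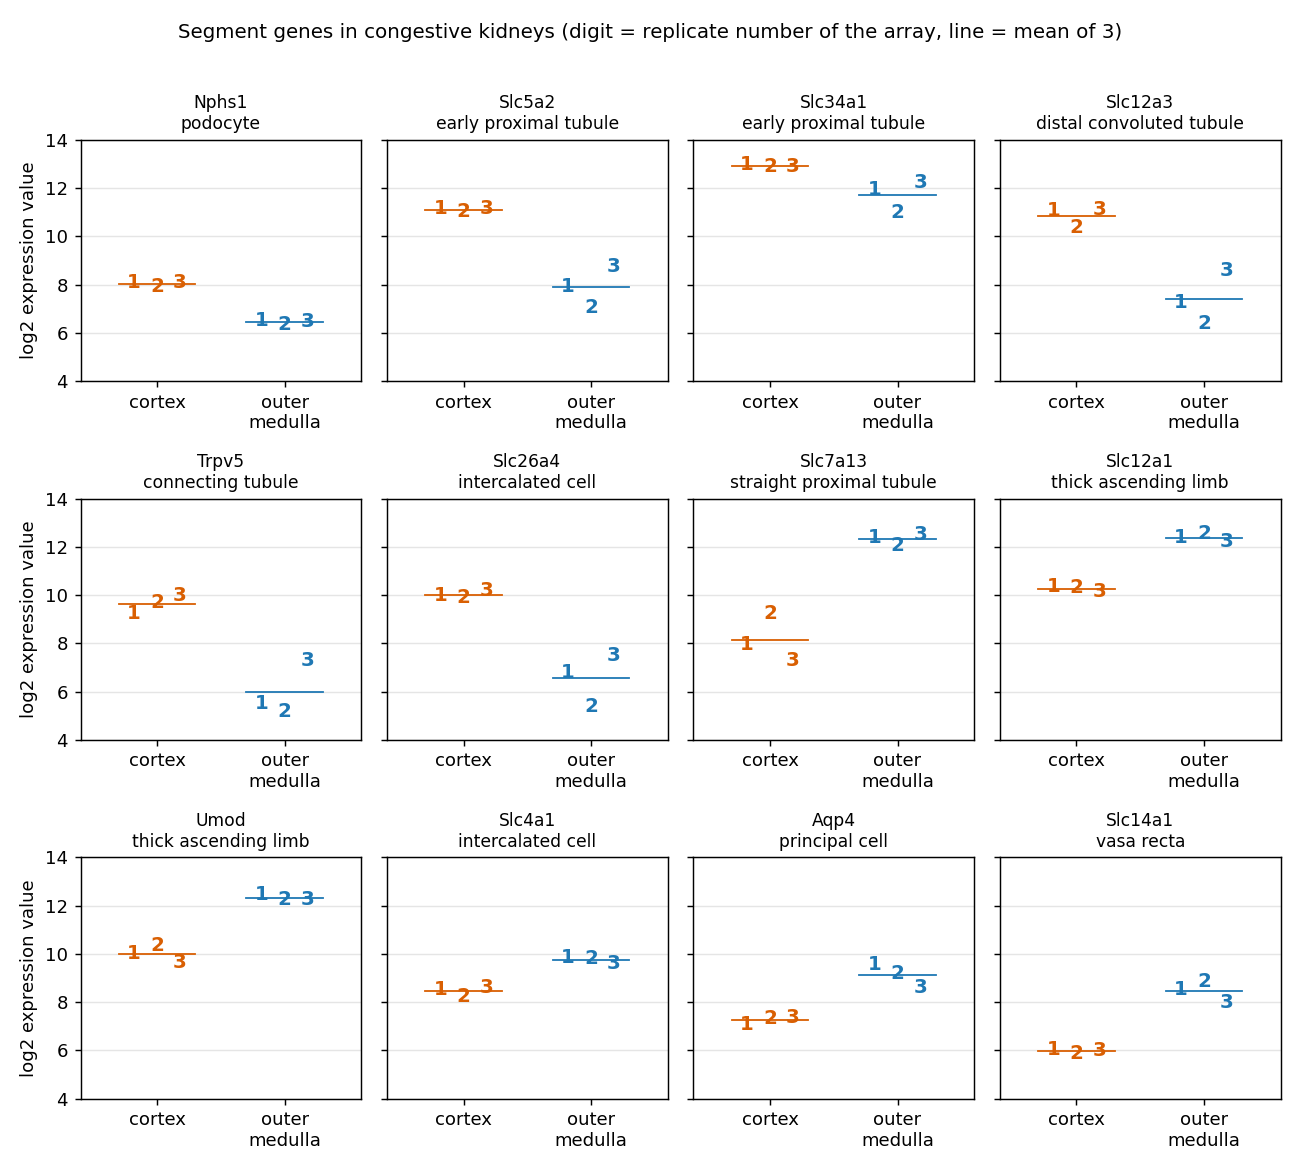
Log2 expression values of 12 nephron and vessel genes in cortex (orange, left) and outer medulla (blue, right) of congestive kidneys, 1 point per array labelled with its replicate number and a bar at the mean of 3. Slc5a2, Slc34a1, Nphs1, Slc12a3, Trpv5 and Slc26a4 were higher in cortex, and Slc7a13, Slc12a1, Umod, Slc4a1, Aqp4 and Slc14a1 in outer medulla.

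Metabolic genes of the proximal tubule were higher in cortex with them. All 4 called of 6 measured genes of gluconeogenesis, by which the kidney makes glucose, were higher in cortex. Pck1, its rate-controlling enzyme, had 12.02, 11.62 and 11.89 in cortex, against 9.71, 9.08 and 10.26 in outer medulla, which gave a difference of 2.16 (standard error 0.27, adjusted p = 0.0034), and pyruvate carboxylase (Pc) differed by 1.43. Leaving out 1 array gave 2, 4, 3, 3, 4 and 4 calls. Of 32 genes of amino acid catabolism and creatine synthesis 14 were higher and 2 lower, with a median of 0.82. Gatm, the first enzyme of creatine synthesis, had 12.08, 11.90 and 12.07 in cortex, against 9.74, 8.94 and 10.53 in outer medulla and a difference of 2.28. Ddc, which makes dopamine in these cells, differed by 2.60, and Prodh2, which degrades hydroxyproline, by 2.30. The lower ones were Arg2 (-1.26), a mitochondrial arginase, and Aadat (-1.54), an aminotransferase of the kynurenine pathway whose call was not kept without cortex 1 or outer medulla 1 (adjusted p = 0.052). The genes called higher in this list numbered 5, 12, 6, 5, 12 and 24 with 1 array left out.

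Energy metabolism showed smaller differences. Of 38 genes of fatty acid oxidation and peroxisomes 19 were higher in cortex and 1 lower, with a median of 0.42. Acaa2, the last enzyme of mitochondrial beta-oxidation, had 10.44, 10.38 and 10.49 in cortex, against 9.20, 9.19 and 9.33 in outer medulla (difference 1.20, adjusted p = 0.00059), and the medium-chain acyl-CoA synthetase Acsm3 differed by 2.53. The genes called higher numbered 6, 13, 8, 7, 10 and 25 with 1 array left out. Among 67 nuclear genes of the respiratory chain and ATP synthase, 23 were higher and 0 lower, 65 had a positive difference, and the median was 0.30. With 1 array left out in the order above 0, 15, 0, 0, 3 and 30 genes were called, so that none was left without cortex 1, cortex 3 or outer medulla 1, and more were called without outer medulla 3. The largest called difference was that of the complex I subunit Ndufa6, 9.09, 8.79 and 8.92 in cortex, against 8.20, 7.98 and 8.57 in outer medulla, at 0.68 (adjusted p = 0.031). That call was not kept without cortex 1 or 3 or outer medulla 1 or 2 (adjusted p = 0.076 to 0.11). Of 14 genes of glycolysis and lactate handling, 2 were higher in cortex and 4 lower. Those higher in outer medulla included the glucose transporter Slc2a1 (-1.13, adjusted p = 0.0036) and the phosphofructokinase isoform Pfkp (-1.01, adjusted p = 0.0073). The members called lower with 1 array left out numbered 3, 4, 3, 2, 3 and 4, and those called higher 1, 1, 1, 1, 1 and 3.

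The straight proximal tubule gave the largest difference of all toward outer medulla. Slc7a13, an acidic amino acid transporter of the S3 segment, had 7.94, 9.24 and 7.30 in cortex, against 12.40, 12.06 and 12.50 in outer medulla. Its difference was -4.16 (standard error 0.43, adjusted p = 0.0018), and cortex 2 was the highest cortex array. Of 11 S3 genes 5 were lower in cortex and 1 was higher, with a median of -0.77. The glutamine transporter Slc38a3 had 8.19, 8.89 and 7.87 in cortex, against 10.46, 9.89 and 10.58 in outer medulla (difference -1.99) and the organic anion transporter Slc22a7 differed by -1.08. The member higher in cortex was the glutamate transporter Slc1a1 (0.79, adjusted p = 0.025), not kept without cortex 1, 2 or 3 or outer medulla 1 or 2 (adjusted p = 0.055 to 0.10). Members lower in cortex numbered 4, 4, 4, 3, 7 and 5 with 1 array left out, and those higher 0, 0, 0, 0, 0 and 2. Drug and organic ion transporters went both ways, with 5 of 21 higher and 7 lower in cortex. Slco1a6 (8.65, 9.46 and 7.84 in cortex, against 12.07, 11.22 and 12.12 in outer medulla) and Slco4c1 (5.73, 6.58 and 5.76 in cortex, against 8.86, 8.09 and 9.31 in outer medulla), carriers of organic anions, were among the lower ones, with differences of -3.15 and -2.73. The carnitine transporter Slc22a5 (11.16, 11.09 and 11.09 in cortex, against 9.57, 8.94 and 9.82 in outer medulla) and Slc22a23 were higher by 1.67 and 2.35. With 1 array left out the higher transporters numbered 3, 4, 3, 2, 5 and 7 and the lower ones 5, 6, 5, 5, 6 and 7.

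Enzymes that oxidise or conjugate drugs and lipids were split too. Of 32 cytochrome P450 genes 3 were higher and 3 lower in cortex, against 6.70% and 6.20% of all genes. The fatty acid hydroxylase Cyp4a1 had 11.02, 11.49 and 11.35 in cortex, against 8.19, 8.95 and 9.54 in outer medulla, and the difference came to 2.39 (adjusted p = 0.0037), and the ethanol-inducible Cyp2e1 had 11.02, 10.84 and 11.15 in cortex, against 8.78, 8.40 and 9.83 in outer medulla, a difference of 1.999. Cyp2s1 was higher in outer medulla (-0.78). Of 30 conjugating enzymes 7 were higher and 3 lower in cortex. Ugt2b35, a glucuronosyltransferase, differed by 2.67 and the glutathione transferase Gstm1 by 1.49, whereas the glutathione transferase Gsta3 (-1.09) and Ugt8 (-1.30) were lower. With the replicate block 12 and 2 conjugating enzymes and 4 and 6 cytochrome genes were higher and lower. The conjugating enzymes called higher numbered 4, 4, 3, 4, 6 and 14 with 1 array left out, and the cytochromes 2, 2, 2, 2, 4 and 6. The cytochromes called lower numbered 1, 2, 1, 1, 4 and 3. Members of these families share sequence, so that their probes may read more than 1 gene.

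Outside the listed groups, the leading genes of the outer medulla were of mixed function. Hnmt, which encodes the enzyme that methylates histamine, had 7.22, 8.55 and 6.57 in cortex, against 11.75, 10.87 and 11.79 in outer medulla, and the difference came to -4.03 (adjusted p = 0.0029). The homeobox gene Alx1 had 7.14, 7.69 and 7.31 in cortex, against 10.88, 10.83 and 10.32 in outer medulla (-3.29, adjusted p = 0.00038), and here outer medulla 3 was the lowest of its region. Slc7a12, an amino acid transporter, differed by -3.003, the calcium channel subunit Cacng5 by -2.88, the trefoil factor Tff3 by -2.85, and cysteine dioxygenase (Cdo1) by -2.75. Ly6al and Dhrs7l1 differed by -2.87 and -2.74. On the side of the cortex the corresponding genes were Fam151a (3.44), the aldo-keto reductase Akr1c1 (3.36) and the membrane-bound carbonic anhydrase Car14 (3.36).

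Salt transport genes of the thick ascending limb were higher in outer medulla. Of 23 measured genes 15 were lower and 1 was higher in cortex, against 6.20% of all genes lower, with a median of -0.81. Slc12a1, the furosemide-sensitive cotransporter NKCC2, had 10.34, 10.32 and 10.14 in cortex, against 12.38, 12.54 and 12.23 in outer medulla, which gave a difference of -2.12 (standard error 0.11, adjusted p = 0.00028). Uromodulin (Umod), the most abundant urinary protein, had 10.02, 10.34 and 9.65 in cortex, against 12.46, 12.24 and 12.26 in outer medulla, and the difference came to -2.31 (adjusted p = 0.00059). The arrays of each region lay close together and far from those of the other. The potassium channel Kcnj1 (-1.24), the claudins Cldn16 (-1.62) and Cldn19 (-1.44), which let calcium and magnesium pass between cells, and the kinase Stk39 (-0.69), which switches the cotransporter on, followed. Tmem207 had the largest difference of the list (7.34, 7.14 and 7.06 in cortex, against 9.97, 9.60 and 9.63 in outer medulla, -2.56). The member higher in cortex was the potassium channel Kcnj16 (0.94, adjusted p = 0.0018), which distal convoluted cells use as well. Egf, made by thick limb and distal convoluted cells, had 10.17, 9.06 and 9.22 in cortex, against 11.13, 10.41 and 10.66 in outer medulla, and its call at -1.25 (adjusted p = 0.037) was not kept without cortex 2 or 3 or outer medulla 1, 2 or 3 (adjusted p = 0.05 to 0.13). The members called lower numbered 15, 14, 14, 14, 14 and 14 with 1 array left out and those called higher 1, 1, 1, 1, 1 and 2, and the block gave 15 and 2. Their mean level was 8.83, 8.74 and 8.75 in cortex, against 9.67, 9.67 and 9.53 in outer medulla.

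In the collecting duct, subunits and cell types parted between the regions. Of 18 genes of principal cells, sodium channels and water channels 5 were higher and 5 lower in cortex. The epithelial sodium channel subunit Scnn1b had 9.07, 8.66 and 9.09 in cortex, against 8.14, 7.70 and 8.11 in outer medulla and was higher by 0.96 (adjusted p = 0.0098), and the potassium channel subunit Kcne1 by 1.54. Aqp4, the basolateral water channel, had 7.07, 7.32 and 7.35 in cortex, against 9.54, 9.17 and 8.60 in outer medulla and a difference of -1.86 (adjusted p = 0.0028). For Aqp2, the vasopressin-regulated water channel, the values were 10.02, 9.68 and 9.57 in cortex, against 10.94, 10.82 and 10.18 in outer medulla, and the call at -0.89 (adjusted p = 0.034) was not kept without cortex 1, 2 or 3 or outer medulla 1 or 2 (adjusted p = 0.059 to 0.12). Of 20 intercalated cell genes 9 were higher and 3 lower. Slc26a4, which encodes pendrin of the bicarbonate-secreting cells, had 9.97, 9.90 and 10.18 in cortex, against 6.79, 5.38 and 7.49 in outer medulla, which gave a difference of 3.47 (standard error 0.46, adjusted p = 0.0041). The alkali-sensing receptor Insrr (2.38) and the anion exchanger Slc4a9 (0.87) of the same cells were higher as well. Slc4a1, the anion exchanger of the acid-secreting cells, had 8.53, 8.24 and 8.59 in cortex, against 9.85, 9.81 and 9.58 in outer medulla and a difference of -1.29, and Aqp6 (-1.17) and Slc26a7 (-1.46) were lower in cortex too. With 1 array left out the higher and lower intercalated cell genes numbered 3, 9, 3, 5, 6 and 9 and 3, 3, 3, 3, 3 and 3, and the principal cell genes 2, 4, 2, 4, 2 and 4 and 2, 3, 3, 3, 3 and 5.

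Genes for a concentrated interstitium were higher in outer medulla. Of 12 genes of osmolytes, urea and thin limbs 7 were lower and 1 higher in cortex, with a median of -1.001. Slc14a1, the urea transporter of the descending vasa recta, had 6.06, 5.89 and 5.97 in cortex, against 8.54, 8.84 and 7.99 in outer medulla, and the difference came to -2.48 (adjusted p = 0.00077). The inositol transporter Slc5a3 had 7.57, 7.81 and 7.88 in cortex, against 10.13, 10.32 and 9.73 in outer medulla (-2.31), the urea transporter Slc14a2 differed by -1.81 and Nfat5, the transcription factor that answers to tonicity, by -1.03. The member higher in cortex was Sord (1.33), which turns sorbitol into fructose. Members lower in cortex numbered 6, 7, 6, 7, 7 and 8 with 1 array left out. Of 26 genes of endothelium and its growth factors 2 were higher and 5 lower, against 6.70% and 6.20% of all genes, and 4 and 5 with the block. Prox1 had 5.77, 5.26 and 5.97 in cortex, against 8.04, 7.60 and 7.23 in outer medulla and differed by -1.95 (adjusted p = 0.0031). It encodes a transcription factor of lymphatic vessels that medullary tubules also express. Lyve1, a lymphatic receptor, differed by -0.64 (adjusted p = 0.016), not kept without cortex 2 or 3 or outer medulla 1 (adjusted p = 0.051 to 0.074). The growth factor Vegfa was higher in cortex (10.27, 10.15 and 10.26 in cortex, against 9.61, 9.65 and 9.64 in outer medulla, 0.60, adjusted p = 0.0034). The endothelial genes called lower numbered 3, 4, 2, 1, 3 and 8 with 1 array left out, and those called higher 1, 2, 1, 2, 1 and 3.

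Podocytes, the filter cells of the glomerulus, were marked in the cortex. Of 15 genes 8 were higher and 1 lower. Nphs1, which encodes nephrin of the slit diaphragm, had 8.08, 7.92 and 8.08 in cortex, against 6.53, 6.34 and 6.47 in outer medulla, which gave a difference of 1.58 (standard error 0.09, adjusted p = 0.00038), and Podxl (1.05), Wt1 (0.85) and Ptpro (1.18) followed. The transcription factor Tcf21, which interstitial cells express too, was the lower one, with 9.16, 9.40 and 9.09 in cortex, against 10.17, 10.13 and 9.71 in outer medulla and a call at -0.79 (adjusted p = 0.014) that was not kept without cortex 1 or 3 or outer medulla 1 (adjusted p = 0.057 to 0.064). Podocyte genes called higher numbered 6, 7, 7, 7, 7 and 7 with 1 array left out. Of 12 genes of the juxtaglomerular apparatus and the renin-angiotensin system 0 were higher in cortex and 4 lower. The peptidase Mme, which degrades angiotensin and natriuretic peptides, had 9.84, 10.47 and 9.63 in cortex, against 11.96, 11.47 and 11.97 in outer medulla, a difference of -1.82. The angiotensin-converting enzyme Ace had 7.43, 7.37 and 7.80 in cortex, against 8.78, 8.67 and 9.83 in outer medulla, and its call at -1.56 (adjusted p = 0.015) was not kept without cortex 1 (adjusted p = 0.068). The list members called lower numbered 1, 4, 2, 2, 4 and 4 with 1 array left out. Among 23 genes of vasoactive signalling 7 were higher and 3 lower. The clearance receptor Npr3 (1.53) and the nitric oxide receptor subunit Gucy1a1 (0.80) were higher in cortex, and the cyclooxygenase Ptgs1 (-1.47), the prostaglandin receptor Ptger1 (-1.05) and endothelin 3 (Edn3, -1.13) in outer medulla. The vasoactive genes called higher numbered 2, 5, 4, 2, 6 and 7 with 1 array left out.

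Transcription factors of nephron segments were mostly higher in outer medulla, with 14 of 26 lower and 3 higher in cortex. The epithelial factor Ehf had 6.73, 7.01 and 7.06 in cortex, against 8.96, 8.85 and 8.73 in outer medulla, and the difference came to -1.91 (adjusted p = 0.00038). Tfap2b (-0.90), Pax2 (-0.87) and Hoxb8 (-0.81) were lower in cortex too. Osr2 (1.15) and Lhx1 (0.90) were higher. Hnf4a, a factor of proximal tubule identity, had 10.80, 10.79 and 10.90 in cortex, against 9.92, 9.45 and 10.51 in outer medulla and was not called at 0.87 (adjusted p = 0.053, with the block 0.033). The factors called lower numbered 5, 11, 8, 6, 8 and 12 with 1 array left out, and those called higher 2, 3, 2, 2, 3 and 5.

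**Figure D3:**
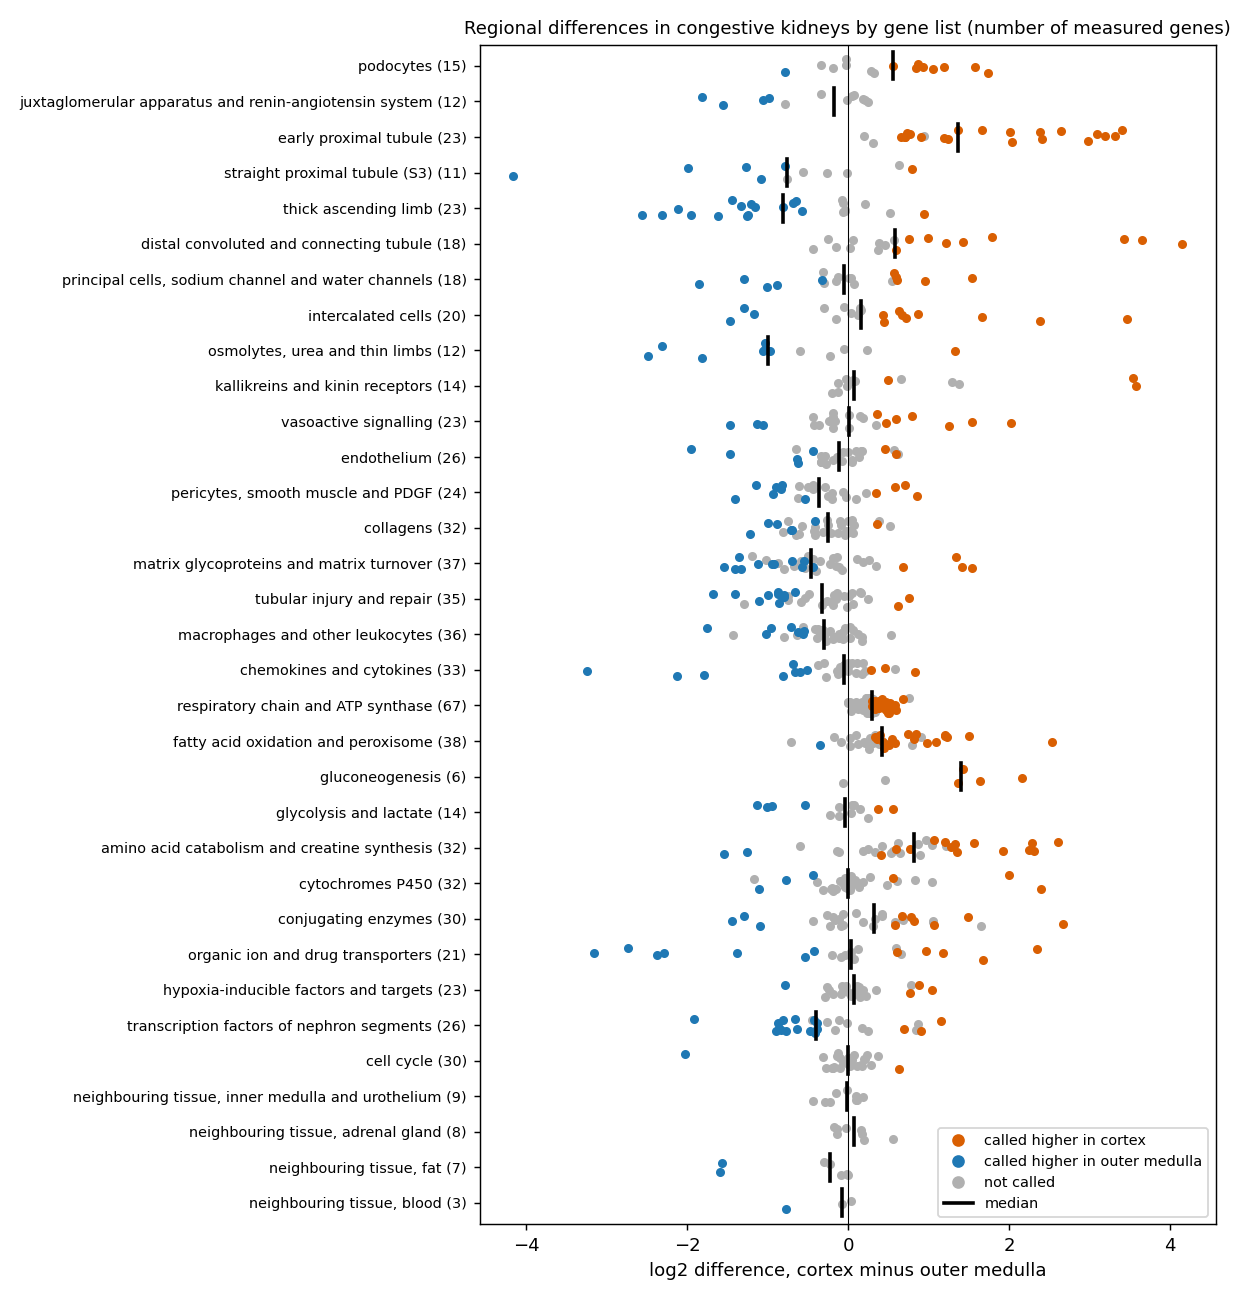
Differences between cortex and outer medulla of congestive kidneys (log2, horizontal axis) for the measured members of 33 gene lists, 1 point per gene, orange where called higher in cortex, blue where called higher in outer medulla and grey where not called, with a black tick at the median. Early proximal tubule genes lie to the right, thick ascending limb and osmolyte genes to the left, and the cell cycle genes around 0.

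Matrix and mesenchymal genes leaned toward outer medulla. Of 32 collagens 6 were lower in cortex and 1 higher, with a median of -0.25. Col14a1, a collagen that sits on fibrils, had 6.76, 6.93 and 6.78 in cortex, against 8.07, 8.29 and 7.75 in outer medulla, which gave a difference of -1.21 (standard error 0.14, adjusted p = 0.0024). For Col12a1 the values were 10.78, 11.07 and 10.61 in cortex, against 11.97, 12.07 and 11.41 in outer medulla, and its call at -0.99 (adjusted p = 0.016) was not kept without cortex 1 or 3 or outer medulla 1 (adjusted p = 0.063 to 0.074). Col1a1, which encodes a chain of type I collagen, had 9.88, 10.23 and 9.43 in cortex, against 10.69, 11.14 and 10.15 in outer medulla and was not called at -0.81 (adjusted p = 0.11). Outer medulla 3 lay below cortex 2, so the regions overlapped, while within each number the outer medulla array was the higher one. The adjusted p with the replicate block was 0.004. Of 37 matrix glycoproteins and genes of matrix turnover 11 were lower and 4 higher in cortex. The TGF-beta binding protein Ltbp1 had 7.58, 8.13 and 7.75 in cortex, against 9.51, 9.32 and 9.24 in outer medulla (-1.54, adjusted p = 0.0013) and versican (Vcan) differed by -1.34. Fibronectin (Fn1) had 10.69, 11.29 and 10.72 in cortex, against 12.09, 12.33 and 11.63 in outer medulla, and its call at -1.12 (adjusted p = 0.017) was not kept without cortex 1 or 3 or outer medulla 1 (adjusted p = 0.066 to 0.075). Mfap4, a protein of elastic fibres, was higher in cortex, with 9.38, 9.72 and 9.11 in cortex, against 7.93, 8.28 and 8.0002 in outer medulla and a difference of 1.34. With the block 13 collagens and 22 of these matrix genes were lower in cortex, and 2 and 3 higher. Without each array in the order above, the collagens called lower numbered 1, 6, 1, 1, 4 and 13 and the matrix genes 5, 12, 5, 3, 8 and 22, and those called higher 0, 0, 0, 0, 0 and 1 and 2, 3, 4, 2, 3 and 4.

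Of 24 genes of pericytes, smooth muscle and the PDGF system 7 were lower and 4 higher in cortex. Differences in the list ran from -1.41 to 0.86, and 6 were positive and 18 negative. The called members named below all lay toward outer medulla, and the 4 called higher in cortex are not named. Pdgfra, the receptor that marks interstitial fibroblasts, had 9.999, 10.24 and 9.97 in cortex, against 11.12, 11.11 and 10.66 in outer medulla, which gave a difference of -0.89 (standard error 0.14, adjusted p = 0.0085). Its relative Pdgfrb had 9.79, 10.02 and 9.58 in cortex, against 10.18, 10.24 and 9.73 in outer medulla, and the difference came to -0.25 (adjusted p = 0.40) that was not called. The ligand Pdgfd (-1.41) and the pericyte gene Rgs5 (-0.83) were lower in cortex. Transgelin (Tagln), an actin-binding protein of contractile cells, had 10.30, 10.73 and 10.09 in cortex, against 11.39, 11.55 and 10.98 in outer medulla, and its call at -0.94 (adjusted p = 0.022) was not kept without cortex 1 or 3 or outer medulla 1 or 2 (adjusted p = 0.066 to 0.092). The members called lower numbered 3, 8, 5, 4, 4 and 10 with 1 array left out, and those called higher 0, 0, 0, 1, 0 and 2.

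Leukocyte genes leaned the same way as the matrix genes. Of 36 markers of macrophages and other leukocytes 7 were lower and 0 higher in cortex, against 6.20% and 6.70% of all genes. Their mean level was 7.38, 7.44 and 7.39 in cortex, against 7.78, 7.92 and 7.55 in outer medulla. Among the defining markers, Ptprc, C1qa and Cd68 differed by -0.31, -0.23 and -0.63 and were not called (adjusted p = 0.075, 0.18 and 0.14). Ms4a4a had 6.75, 7.16 and 7.36 in cortex, against 8.86, 9.17 and 8.50 in outer medulla, and the difference came to -1.75 (adjusted p = 0.0027), the mannose receptor Mrc1 had 8.36, 8.42 and 8.45 in cortex, against 9.39, 9.58 and 9.16 in outer medulla (-0.96, adjusted p = 0.0028), and Siglec1 differed by -1.02. The part of these cells in the matrix differences was not tested. With the block 11 markers were lower in cortex, and with 1 array left out 4, 5, 4, 4, 4 and 13. Of 33 chemokines and cytokines 8 were lower and 3 higher in cortex. The median was -0.06, with 11 positive and 22 negative differences. Of the called members only lower ones are named here. Fgf7, a growth factor that mesenchymal cells make for epithelia, had 5.22, 5.37 and 5.48 in cortex, against 9.12, 8.79 and 7.89 in outer medulla, which gave a difference of -3.25 (standard error 0.28, adjusted p = 0.001). The interferon-induced chemokine Cxcl9 (6.32, 6.54 and 6.49 in cortex, against 9.10, 8.75 and 7.88 in outer medulla) and hepatocyte growth factor (Hgf, 8.15, 8.22 and 8.04 in cortex, against 10.04, 10.27 and 9.46 in outer medulla) differed by -2.13 and -1.79. The members called lower numbered 7, 8, 7, 6, 8 and 8 with 1 array left out, and those called higher 0, 1, 0, 1, 0 and 2.

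**Figure D4:**
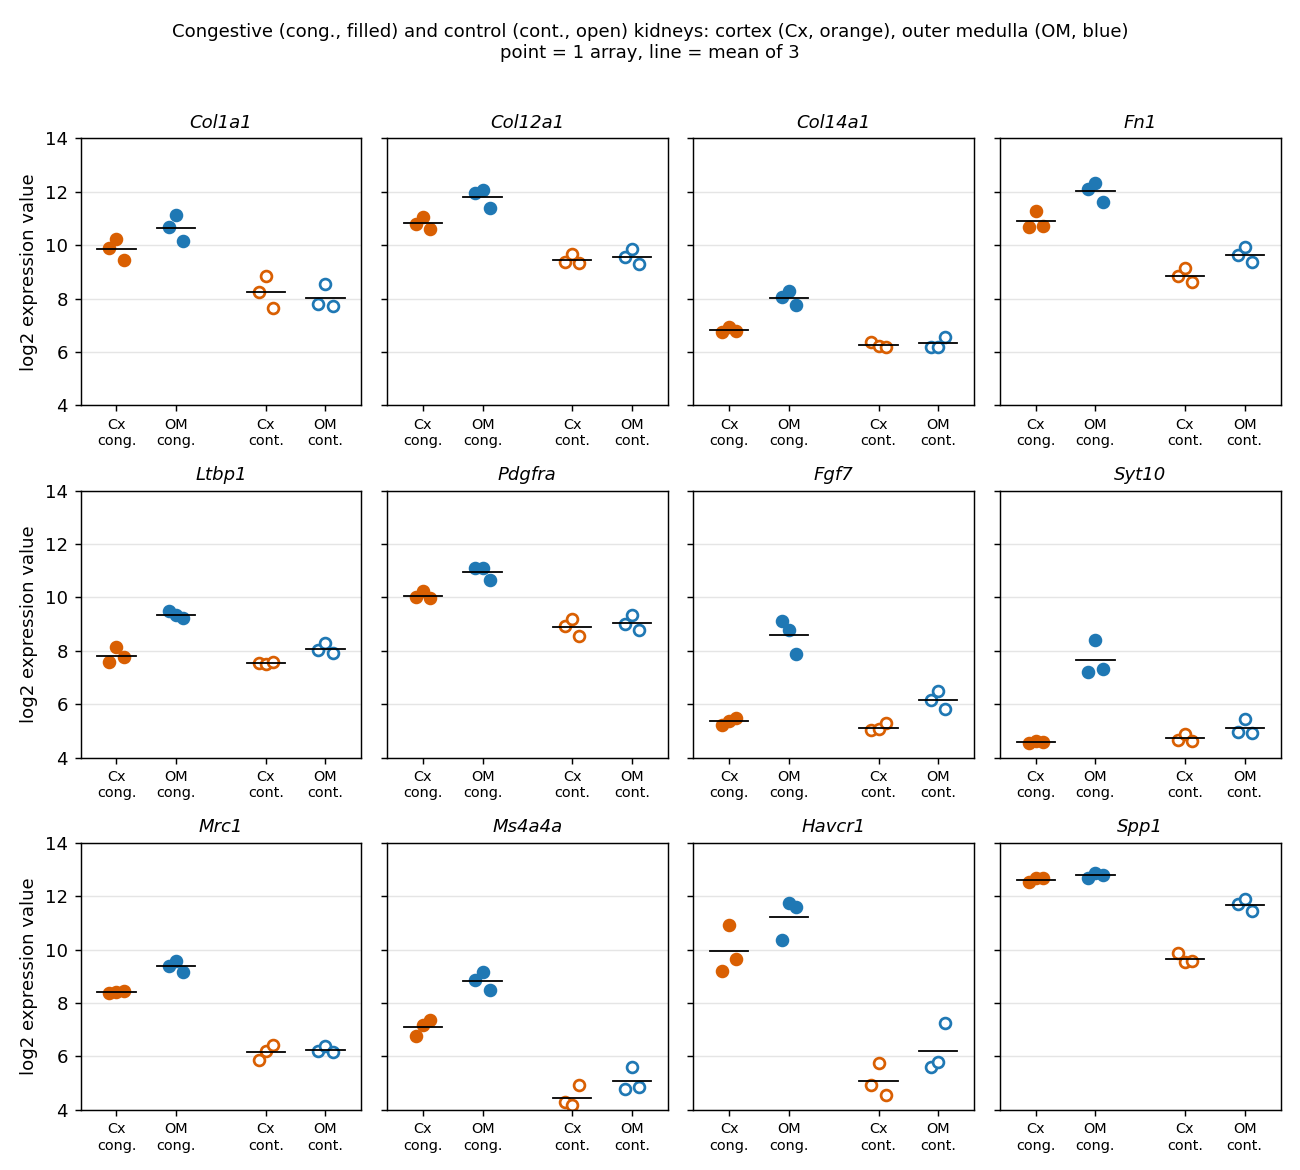
Log2 expression values of 12 matrix, mesenchymal, leukocyte and injury genes, in this order from left to right in each panel: cortex (orange) and outer medulla (blue) of congestive kidneys, then cortex and outer medulla of control kidneys (open points). Each point is 1 array and bars are means of 3. In congestive kidneys Fgf7, Syt10, Mrc1 and Ltbp1 separate the regions, whereas the regions differ far less in Spp1 than in control kidneys.

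Of 35 genes of tubular injury and repair 11 were lower and 2 higher in cortex, with a median of -0.33. Havcr1, the injury molecule KIM1, had 9.21, 10.94 and 9.65 in cortex, against 10.35, 11.74 and 11.59 in outer medulla, and the regions overlapped. Its difference of -1.29 was not called (adjusted p = 0.15), with cortex 2 far above the other cortex arrays, and the adjusted p was 0.018 with the block. Vtcn1, an inhibitory ligand of T cells (6.80, 6.98 and 6.95 in cortex, against 8.71, 8.87 and 8.18 in outer medulla), and the adhesion receptor Cd44 (6.63, 7.22 and 6.93 in cortex, against 7.65, 8.12 and 8.01 in outer medulla) were lower in cortex, with differences of -1.67 and -1.0002. Prom1, a marker of scattered tubular progenitor-like cells, was also lower (-1.11), and the integrin subunit Itgb6 was higher (0.62). The injury marker Lcn2 differed by -0.48 (adjusted p = 0.14). The injury genes called lower numbered 5, 13, 6, 6, 9 and 12 with 1 array left out, and those called higher 1, 1, 1, 2, 1 and 2. Of 30 cell cycle genes 1 was higher in cortex and 1 lower. The lower one was Cdkn1c, an inhibitor of cyclin-dependent kinases, with 7.21, 7.17 and 7.09 in cortex, against 9.26, 9.75 and 8.55 in outer medulla and a difference of -2.03 (adjusted p = 0.0039). The median over the list was -0.01, and the single gene called higher, the spindle motor Kif11, had a difference of 0.63 (adjusted p = 0.034), not kept without cortex 1, 2 or 3 or outer medulla 1 or 2 (adjusted p = 0.083 to 0.11).

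Among 23 hypoxia-inducible factors and their targets 3 were higher and 1 lower in cortex, against 6.70% and 6.20% of all genes. Hif1a differed by -0.26 (adjusted p = 0.14) and Epas1, which encodes HIF2alpha, by 0.19 (adjusted p = 0.22). Ndrg1 had 12.58, 12.62 and 12.40 in cortex, against 11.61, 11.39 and 11.49 in outer medulla, and the difference came to 1.04 (adjusted p = 0.0012) toward cortex. The lower one, the prolyl hydroxylase Egln3, had 7.16, 7.29 and 7.06 in cortex, against 8.18, 8.21 and 7.49 in outer medulla, and its call at -0.79 (adjusted p = 0.035) was not kept without cortex 1, 2 or 3 or outer medulla 1 or 2 (adjusted p = 0.064 to 0.13). With the block 5 were higher, and with 1 array left out 1, 2, 3, 2, 3 and 4.

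Among genes of neighbouring tissue, some of fat and blood were called, against 6.70% of all genes higher and 6.20% lower in cortex. Of 9 genes of inner medulla and urothelium and 8 adrenal genes, 0 and 0 were called higher in cortex and 0 and 0 lower in limma's test. With the block 0 and 1 were higher and 1 and 0 lower. Among 7 genes of fat 2 were lower in cortex, Fabp4 (8.09, 7.68 and 7.44 in cortex, against 9.58, 9.37 and 8.96 in outer medulla) and Cidec, whereas the defining fat marker Adipoq differed by -0.22 and was not called (adjusted p = 0.21). With 1 array left out the inner medulla and urothelium genes called lower numbered 0, 0, 0, 0, 0 and 1. The call of Cidec at -1.59 (adjusted p = 0.011) was not kept without outer medulla 1 (adjusted p = 0.051). Of 3 blood genes the haemoglobin gene Hba-a1 was lower in cortex, with 6.69, 6.64 and 6.89 in cortex, against 7.29, 7.61 and 7.62 in outer medulla and a difference of -0.77 (adjusted p = 0.0073).

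**Figure D5:**
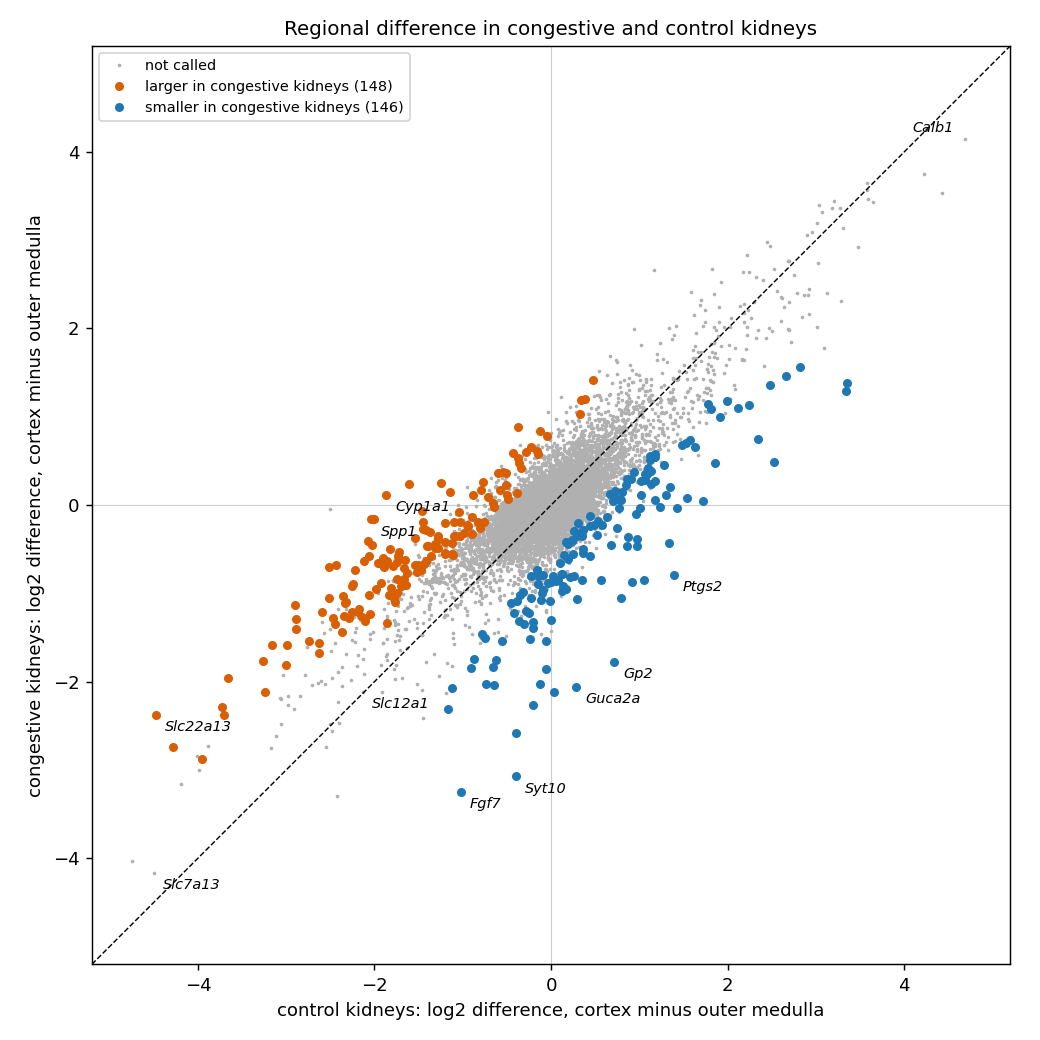
Difference between cortex and outer medulla in congestive kidneys (vertical axis, log2) against the same difference in control kidneys (horizontal axis, log2), 1 point per named gene. The 294 genes whose difference was called different between the kidneys are coloured by the signed difference. Orange marks a larger one in congestive kidneys (shift toward cortex) and blue a smaller one (shift toward outer medulla). The dashed line marks equal differences.

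The regional difference of the congestive kidneys was then set against that of the control kidneys. A linear model over the 12 arrays with 6 pair blocks called 294 genes (1.62% of those tested). Of these, 148 (0.815%) had a larger and 146 (0.804%) a smaller signed difference, cortex minus outer medulla, in congestive kidneys. Larger thus means a shift toward cortex and smaller a shift toward outer medulla, whether the distance between the regions grew or shrank. These calls rested on all 3 pairs of kidneys: without replicate 1, 2 or 3 in both kidneys they numbered 0, 3 and 17 larger and 0, 6 and 26 smaller. With no pair block they numbered 72 and 77. Slc7a13, Calb1 and Slc12a1, which lead their segments, had regional differences of -4.16, 4.15 and -2.12 in congestive kidneys, against -4.49, 4.68 and -2.13 in control kidneys, and were not called (adjusted p = 0.81, 0.64 and 0.98). Syt10, a vesicle protein gene, had the largest shift toward outer medulla. In congestive kidneys its values were 4.53, 4.61 and 4.60 in cortex, against 7.22, 8.41 and 7.32 in outer medulla, whereas in control kidneys they were 4.67, 4.88 and 4.61 in cortex, against 4.97, 5.45 and 4.93 in outer medulla, a shift of -2.68 (standard error 0.19, adjusted p = 0.0048). The regions of the control kidneys lay close together while those of the congestive kidneys were far apart.

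Fgf7 had a regional difference of -3.25 in congestive kidneys, against -1.02 in control kidneys (adjusted p of the shift = 0.0071), and the matrix protease Adamts17 -2.58 against -0.40 (adjusted p = 0.022). Gp2, a homologue of uromodulin, had opposite signs, with -1.78 in congestive and 0.72 in control kidneys (adjusted p = 0.014), as had guanylin (Guca2a), with -2.06 and 0.28 (adjusted p = 0.024). Ptgs2, the inducible cyclooxygenase, had -0.79 in congestive kidneys, where it was called between the regions only with the block (adjusted p = 0.062 without and 0.048 with it), and 1.39 in control kidneys (adjusted p = 0.0071). Shifts the other way came with a smaller distance between the regions. The organic anion transporter Slc22a13 had 6.04, 5.77 and 5.61 in cortex, against 8.03, 7.99 and 8.53 in outer medulla, a difference of -2.38, against -4.48 in control kidneys (adjusted p = 0.0053). Osteopontin (Spp1), a secreted phosphoprotein of injured tubules, had 12.53, 12.67 and 12.67 in cortex, against 12.68, 12.89 and 12.80 in outer medulla in congestive kidneys, against 9.86, 9.55 and 9.56 (cortex) and 11.72, 11.90 and 11.46 (outer medulla) in control kidneys (adjusted p = 0.0066). Its regional difference was -0.16 in congestive kidneys and -2.03 in control kidneys, and the congestive values lay near the top of the range of the arrays. The aryl hydrocarbon target Cyp1a1 (0.12 against -1.87), the bombesin receptor Grpr (-0.16 against -2.004), Tmed6 (0.24 against -1.61) and Anxa13 (-0.70 against -2.52) also shifted this way. The call of Anxa13 between the congestive regions was not kept without cortex 1, 2 or 3 or outer medulla 1 (adjusted p = 0.055 to 0.084). Among the lists, 7 of 37 matrix genes and 4 of 32 collagens shifted toward outer medulla, 2 and 0 toward cortex, and the median regional difference was -0.46 and -0.25 in congestive kidneys, against -0.06 and 0.03 in control kidneys. Of the 23 thick limb genes 1 shifted toward outer medulla and 1 toward cortex, of the 23 early proximal tubule genes 0 and 1. Shifts were not particular to the matrix lists. Of 14 kallikrein and kinin genes and 15 podocyte genes, 3 and 3 shifted toward outer medulla and 0 and 0 toward cortex. Of 30 conjugating enzymes and 21 drug and organic ion transporters, 5 and 3 shifted toward cortex and 0 and 0 toward outer medulla.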

How the data were processed

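Total RNA of 12 tissue samples, 3 per region and kidney, was hybridised to GeneChip arrays (Rat Gene 2.0 ST). The authors' deposited table holds log2 values that the submitters' notes credit to Affymetrix Expression Console. Its version, summarisation and log base were each not given in the sources used here, and values of 1.21 to 13.5 with array medians of 6.02 to 6.09 were read as log2. Of 36685 rows, 18511 had 1 gene symbol in the platform annotation, 575 had several and 17599 had none. The brightest row over all arrays stood for a gene, which left 18166 genes. Limma 3.58.1 in R 4.3.3 (lmFit and eBayes, two-sided, Benjamini-Hochberg over all named genes) was fitted to the 6 congestive arrays without a block. A fit of all 12 arrays with 6 pair blocks tested the shift against control kidneys. The code was tested on simulated data.

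Same-numbered cortex and outer medulla arrays of the congestive kidneys deviated together from their region's mean (r = 0.34, 0.29 and 0.26, against -0.19 to -0.12 for other numbers). Deviations from a mean of 3 arrays cancel within a region. Positive values for same numbers therefore bring negative values for other numbers, which add no support of their own. The pairing of regions by number was used only in the alternative with the replicate block. The pair blocks of the shift fit join the congestive and control arrays of the same region and number, since the paper compares both kidneys of a rat. That pairing was not checked here, and the shift fit does not join cortex and outer medulla of a number. No label states that a number is 1 rat. Named genes are the 12 largest differences in each direction among called genes whose regions do not overlap, and the 6 largest called shifts in each direction. Members of 33 lists (758 of 864 genes measured) and tissue markers were named too. Members and lists were chosen with earlier results of these data known. An exact permutation of 3 against 3 arrays cannot go below p = 0.1. The alternatives were the block, all arrays in 1 fit, trended and robust eBayes, a filter on dim genes, other rows per gene, all rows tested, quantile normalization, median centring, the methods' t-test and each array left out. Replicate 3 of each cortex group has a source name with another number, and the title was used.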

Additional observations from a re-analysis of the deposited data

Results flagged for a closer look

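For 31 of the genes named here the regional difference was not the same in the 2 kidneys by limma's test of the shift (congestive minus control of the difference cortex minus outer medulla). The calls rest on 3 pairs of arrays in each region, each a congestive and a control array of the same number. Leaving out replicate 1 in both kidneys ends all of them. The values below are shifts on the log2 scale, followed by the regional difference in congestive and then in control kidneys.

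Some mesenchymal and matrix genes shifted toward outer medulla, 7 of 37 matrix genes, 4 of 32 collagens and 1 of 24 pericyte, smooth muscle and PDGF genes, while 2, 0 and 0 shifted the other way. Fgf7 shifted by -2.22 (-3.25, against -1.02), Adamts17 by -2.18 (-2.58, against -0.40), Col1a1 by -1.03 (-0.81, against 0.22), Col12a1 by -0.89 (-0.99, against -0.11), Ltbp1 by -0.98 (-1.54, against -0.56), Pdgfra by -0.75 (-0.89, against -0.14) and Tcf21 by -0.91 (-0.79, against 0.13). Of 36 markers of macrophages and other leukocytes only 2 were called, both toward outer medulla, against 0.804% of all genes shifted that way. These were Mrc1 and Ms4a4a, with shifts of -0.88 (-0.96, against -0.09) and -1.13 (-1.75, against -0.62). The cell cycle inhibitor Cdkn1c shifted by -1.90 (-2.03, against -0.12) and Syt10 by -2.68 (-3.07, against -0.39).

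Among epithelial genes, Umod shifted toward outer medulla by -1.14 (-2.31, against -1.17), Gp2 by -2.49 (-1.78, against 0.72), Guca2a by -2.34 (-2.06, against 0.28) and Ptgs2 by -2.18 (-0.79, against 1.39). The kallikreins Klk1c9 and Klk1c10 and the podocyte phosphatase Ptpro kept a positive difference that was smaller in congestive kidneys, with shifts of -1.97 (1.38, against 3.35), -2.05 (1.29, against 3.34) and -0.81 (1.18, against 1.996). In their lists 3 of 14 kallikrein and kinin genes and 3 of 15 podocyte genes shifted toward outer medulla, and 0 and 0 toward cortex.

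The opposite shift came mostly with regions that lay closer together in congestive kidneys. It was 2.10 for Slc22a13 (-2.38, against -4.48), 1.99 for Cyp1a1 (0.12, against -1.87), 1.87 for Spp1 (-0.16, against -2.03), 1.85 for Grpr (-0.16, against -2.004), 1.84 for Tmed6 (0.24, against -1.61), 1.81 for Anxa13 (-0.70, against -2.52) and 1.57 for Cidec (-1.59, against -3.16). Smaller shifts were those of Arg2 at 1.09 (-1.26, against -2.35), Ly6al at 1.08 (-2.87, against -3.95), Ace at 1.07 (-1.56, against -2.63), Vtcn1 at 0.95 (-1.67, against -2.63), Cldn19 at 0.93 (-1.44, against -2.37) and Gsta3 at 0.67 (-1.09, against -1.77).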

How the results depend on the processing

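The 1218 genes higher in cortex and 1126 higher in outer medulla became 1464 and 1459 with the replicate block, 1767 and 1627 with all 12 arrays in 1 fit, 1389 and 1300 with trended and robust eBayes, 1338 and 1270 with the dim genes left out, 1203 and 1155 after quantile normalization, and 1374 and 951 with array medians subtracted. They fell to 711 and 625 with p adjusted over all rows of the table. The methods' t-test gave 2136 and 2210 genes before and 155 and 134 after Benjamini-Hochberg adjustment. With 1 array left out they ranged over 516 to 1613 and 482 to 1449, lowest without cortex 1 (482 genes higher in outer medulla also without outer medulla 1) and highest without outer medulla 3. The shifts against control kidneys, 148 larger and 146 smaller, became 72 and 77 with no replicate block, 437 and 348 with trended and robust eBayes, and 358 and 299 with dim genes left out, and ranged over 0 to 17 and 0 to 26 without 1 replicate. The causes were not tested.

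None of the 153 named genes changed the sign of its difference under these alternatives, of which the filter on dim genes kept only 147 of them. With p adjusted over all rows 11 lost their call, with the methods' adjusted t-test 106, with all 12 arrays in 1 fit 1, and with 1 array left out 1 to 18. Of the 66 counts of list members called (33 lists, both directions), those that moved by over 1.5 times numbered 50 with the methods' adjusted t-test, 18 with p adjusted over all rows, 12 with the block, and 12 to 34 with 1 array left out. Among the named genes the block ended no call and changed none but the 5 calls it added, those of Col1a1, Havcr1, Hnf4a, Klk1c10 and Ptgs2. Among all genes 1157 of 1218 and 1058 of 1126 were also called with it.

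Each arm holds 3 arrays, and their number limits the precision: fits of 4 residual degrees of freedom miss differences that are moderate or variable between rats. Probe-level signal, background and scan dates were not analysed here, so that dim genes could not be judged against background. A gene with no named row was not analysed here, among them several defining markers of podocytes, smooth muscle and endothelium.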
